A study of Homo sapiens with 6 samples.

Results

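Small differences that remained, or arose, between cells left untreated and cells 48 h past an IAA pulse were described across all genes in 4 of the 6 RNA-seq libraries of the series. All 6 libraries came from HCT116, a human colon cancer line, in which ENL carries an auxin-inducible degron and the plant F-box protein AtAFB2 is expressed stably. ENL is the product of MLLT1 and binds acetylated histone tails. The control group (2 libraries) received no IAA. The washout group (2 libraries) received the auxin IAA for 3 h at a dose labelled 500 um, taken here as micromolar, then was rinsed with PBS and grown on for 48 h without IAA. The remaining group (2 libraries, IAA for 3 h, no washout) served only to estimate the spread and to give values for side by side reading. AID cells were selected as clones with puromycin and blasticidin, and the sources used here do not state how many clones were used. The labels mention neither a wash nor added culture time for the control cells. Effects of the earlier IAA, of the ENL loss, of the wash and of 48 h in culture therefore cannot be told apart. The labels do not say whether the replicates were separate cultures, so p-values measure only the spread between these libraries.

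An auxin degron lets a plant F-box protein and IAA send the tagged protein to the proteasome, and removal of IAA lets new protein build up again. ENL works beside the super elongation complex and DOT1L at acetylated chromatin, where it helps RNA polymerase II leave its pause. Besides the genes that respond to ENL loss, the comparison of washout with control can carry programmes that follow culture state. Interferon-stimulated genes are antiviral genes switched on by STAT2 and IRF factors at promoter elements rich in GAAA. S phase genes, among them the MCM helicase, are E2F targets whose summed level follows the share of cells that replicate DNA. The stress, hypoxia and growth factor genes follow amino acid supply, oxygen and cell density.

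The deposited values were FPKM, and whole reads were recovered from them. The control libraries held 16611104 and 16763616 reads, the washout libraries 16714327 and 16648611, and the IAA libraries 16442840 and 16770850. The control and washout totals differed by at most 0.918%, so read numbers below can be set beside each other. Per gene, the reads of a control pair differed with a chi-square of 2.54, those of the washout pair with 2.95 and those of control against washout libraries with 3.65 to 4.28, where counting noise alone gives 1. The epithelial markers EPCAM, CDH1, KRT8, KRT18, KRT19, VIL1 and CDX2 were read in every library, while CDX1 and CEACAM5 were at 0 in all 6. Fibroblast markers summed to 10.4 and 9.78 RPM (reads scaled to equal library totals) in control and 14 and 13.7 after washout. Nearly all of that was COL1A1, at 160 and 158 against 228 and 216 reads, with 230 and 185 under IAA (washout log2 change 0.48, limma voom adjusted p = 0.137), whereas PDGFRA was at 0 throughout and DCN had at most 1 read. Blood markers summed to at most 0.901 RPM in any library and endothelial markers to at most 1.61.

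Few genes passed a test of washout against control. On log2(FPKM + 1), limma called 0 of the 8317 genes whose mean FPKM reached 1 (0%), with 750 genes at an unadjusted p under 0.05 and a lowest adjusted p of 0.23. On recovered reads, limma voom called 151 of 13971 genes with a mean of at least 20 reads (1.08%) at an adjusted p under 0.05, 79 higher (0.565%) and 72 lower (0.515%) after washout. On reads 1640 genes had an unadjusted p under 0.05, and a gene that did not pass may still differ. Below, "rose" and "fell" refer to the limma voom test on reads at an adjusted p under 0.05. Of the 151 genes, 119 had also been tested on FPKM, where none passed and 108 had an unadjusted p under 0.05.

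**Figure D1:**
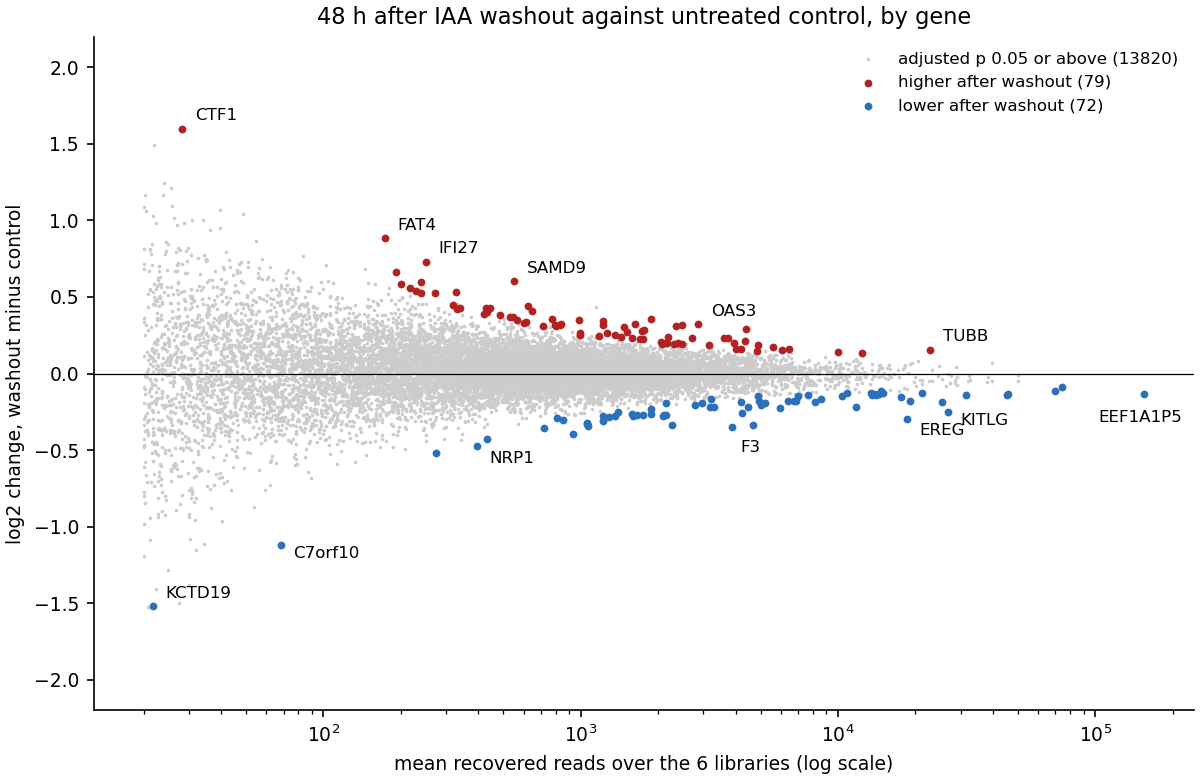
Each point is 1 of the 13971 genes with a mean of at least 20 recovered reads, placed by its mean reads over the 6 libraries (x axis, log scale) and its log2 change in washout minus control (y axis). The 79 genes that rose (red) and the 72 that fell (blue) lie close to 0 at high read numbers, and the 3 that reached 2-fold had few reads.

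The differences that passed were small. Their median size was 0.26 on the log2 scale (1.2-fold), 8 of 151 reached 1.5-fold and 3 reached 2-fold. Those 3, named here after their values were seen, were CTF1 (the cytokine cardiotrophin), KCTD19 and C7orf10, all with few reads. CTF1 had 17 and 11 reads in control and 44 and 41 after washout, and KCTD19 had 40 and 24 against 11 and 10. Among the 11745 genes with at least 100 reads, 95.3% lay within 1.2-fold and 99.9% within 1.5-fold, with a median SE of 0.083. The groups did not overlap for 149 of the 151 genes. Of all tested genes, 23.9% had washout above control without overlap and 17.3% washout below. The test picks such genes from the same libraries, so the count of 149 adds no weight to the calls. In bulk RNA, fewer cells of a type and less RNA per cell cannot be told apart.

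How many genes passed rested strongly on the control libraries. Without control replicate 1 the read fit called 31 genes and without control replicate 2 it called 34, of which 30 and 29 were among the 151. Without washout replicate 1 it called 88, and without either IAA library 184. With median-ratio scaling in place of library totals, which moved the median gene by 0.017, it called 147 genes but split them 47 higher and 100 lower, so the balance of higher to lower calls (52.3% higher with library totals, 32.0% with ratio scaling) depends on the scale. Of the 151 genes, 10 passed with each of the 6 libraries left out in turn: ALDH1A3, EEF1A1P5, EREG, F3, HMGA2, HSP90AA1 and KITLG were lower and OAS3, RHOBTB3 and S100A10 higher.

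Of the lists with at least 5 tested members, interferon-stimulated genes had the highest median. Of 28 tested members 9 rose and 0 fell (0.565% of all tested genes rose). A log2 change above 0 was found in 24 of 28, against 55.4% of all genes, and the median change was 0.277 against 0.015 over all genes. Among the 9 were IFI27, SAMD9, IRF7, IFI6, IFI35, OAS3, ISG15 and DTX3L. In 19 of 28 members both washout libraries lay above both controls, against 23.9% of all genes. Summed over the list, members had 1045 and 945 RPM in control, 1207 and 1226 after washout and 1008 and 969.7 with IAA.

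IFI27 (ENSG00000165949.8), a small interferon-induced membrane protein, had 218 and 197 reads in control and 348 and 340 after washout, with 227 and 171 under IAA. The washout libraries were the highest of the 6 and 1.66-fold above control (log2 change 0.73, SE 0.135, adjusted p = 0.000465). SAMD9 (ENSG00000205413.3), an antiviral restriction factor, had 564 and 403 reads in control and 691 and 757 after washout (log2 change 0.60, SE 0.099, adjusted p = 4.47e-05). Its control replicates differed from each other more than its washout replicates did. IRF7, a transcription factor that amplifies interferon production, had 153 and 152 reads in control, 249 and 210 after washout and 206 and 231 under IAA (log2 change 0.58, SE 0.157, adjusted p = 0.043). For IRF7 the IAA and washout libraries overlapped, and both lay above control.

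IFI6 (ENSG00000126709.10), an interferon-induced protein that limits the replication of some viruses, had 592 and 516 reads in control and 780 and 724 after washout (log2 change 0.44, adjusted p = 0.00161). OAS3 (ENSG00000111331.8), an enzyme that makes the oligoadenylates which activate RNase L, had 2728 and 2589 reads in control and 3393 and 3246 after washout (log2 change 0.32, SE 0.049, adjusted p = 1.18e-05). It was the only list member that passed without each single library. ISG15, a ubiquitin-like modifier, had 1387 and 1237 reads against 1560 and 1672, IFI35 300 and 292 against 404 and 392, and the ubiquitin ligase DTX3L 1548 and 1408 against 1789 and 1767.

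Not every member moved. IFIT2 had 172 and 185 reads in control and 167 and 178 after washout, IFIH1 368 and 317 against 292 and 392, and MX1 37 and 37 against 37 and 41. STAT2, a transcription factor of the interferon response, had 865 and 925 against 1037 and 1008 reads, groups that did not overlap but an adjusted p of 0.227. Control replicate 2 had the fewer reads of the 2 controls for all 9 members that rose, and without it 1 of 28 members passed (median change 0.208), compared with 7 without control replicate 1 and 6 and 7 without each washout library. A further 3 interferon-inducible genes outside the list also rose (named after their values were seen): ADAR, which edits double-stranded RNA, from 9737 and 9607 to 10486 and 10875 reads, IFITM3, which blocks entry of viruses, from 1954 and 2055 to 2289 and 2334, and SP100, a nuclear body protein, from 735 and 641 to 803 and 901. Their limma voom adjusted p-values were 0.0128 (ADAR, 1.1-fold), 0.0394 (IFITM3) and 0.0442 (SP100). With median-ratio scaling they were 0.057, 0.0682 and 0.0647, so none of these genes passed there. The 7 tested antigen presentation genes all had a change above 0 (median 0.155), against 55.4% of all tested genes, and 0 passed. For example, TAP1, a peptide transporter subunit, had 969 and 1062 against 1214 and 1135 reads (adjusted p = 0.144).

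**Figure D2:**
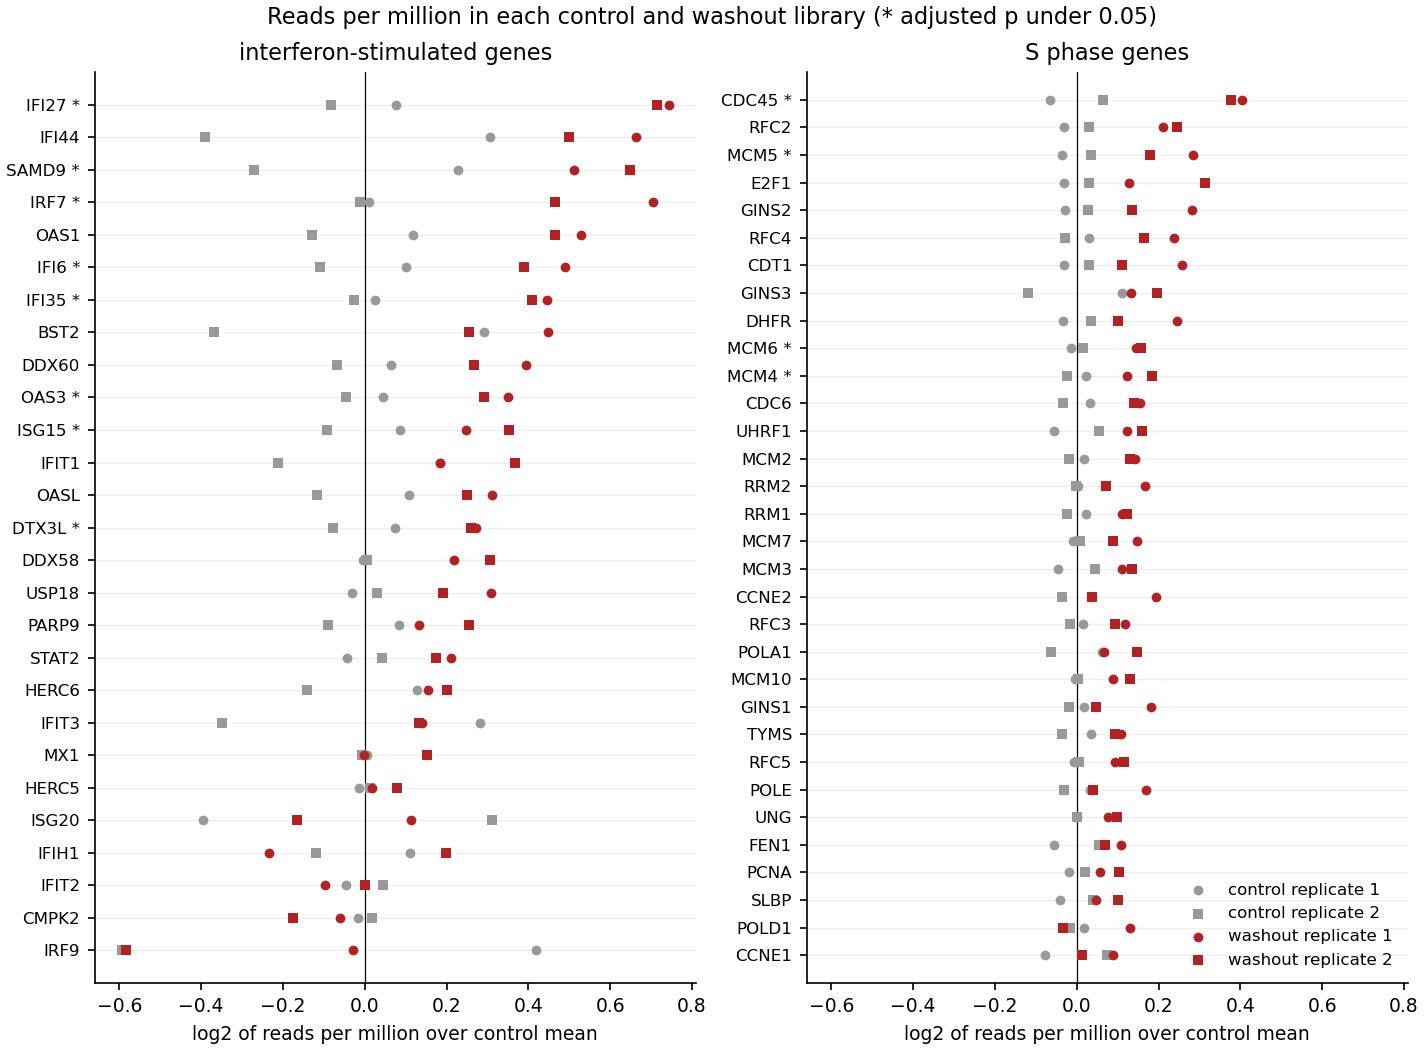
RPM of 27 of the 28 tested members of the interferon list (left) and all 32 of the S phase list (right) in each control (grey) and washout (red) library, as log2 of the ratio to the gene's control mean, with an asterisk where the adjusted p was under 0.05. Over all tested members, drawn or not, both washout values exceed both control values for 19 of 28 interferon members and for 30 of 32 S phase members, at smaller distances in the S phase list.

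The promoters of 5 of the genes that rose are printed because they hold matches to an element known from interferon-responsive promoters. The stretches are the 180 bases before the RefSeq transcript start (GRCh38.p14), read 5′ to 3′ on the gene's strand, with matches on either strand to GAAA, any 2 bases and GAAA in capitals. That motif is a loose form of the element bound by STAT2-IRF9 complexes and IRF factors. Neighbouring matches may overlap, as in ISG15.
IFI27 (chr14:94110556-94110735, plus strand): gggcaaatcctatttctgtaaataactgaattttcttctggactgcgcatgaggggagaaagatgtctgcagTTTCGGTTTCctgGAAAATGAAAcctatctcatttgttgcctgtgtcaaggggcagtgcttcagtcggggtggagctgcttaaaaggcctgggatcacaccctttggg
IFI6 (chr1:27672193-27672372, minus strand): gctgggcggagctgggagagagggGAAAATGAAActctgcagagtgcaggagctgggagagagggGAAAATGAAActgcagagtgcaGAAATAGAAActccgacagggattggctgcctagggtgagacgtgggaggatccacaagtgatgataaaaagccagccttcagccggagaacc
ISG15 (chr1:1013317-1013496, plus strand): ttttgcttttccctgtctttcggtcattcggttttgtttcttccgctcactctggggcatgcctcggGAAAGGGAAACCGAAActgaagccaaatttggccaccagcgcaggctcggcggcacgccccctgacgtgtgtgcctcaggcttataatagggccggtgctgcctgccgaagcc
OAS3 (chr12:112938294-112938473, plus strand): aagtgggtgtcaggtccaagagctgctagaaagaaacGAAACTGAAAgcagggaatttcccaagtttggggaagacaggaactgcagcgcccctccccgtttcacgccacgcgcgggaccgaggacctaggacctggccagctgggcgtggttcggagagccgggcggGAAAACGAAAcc
SAMD9 (chr7:93117980-93118159, minus strand): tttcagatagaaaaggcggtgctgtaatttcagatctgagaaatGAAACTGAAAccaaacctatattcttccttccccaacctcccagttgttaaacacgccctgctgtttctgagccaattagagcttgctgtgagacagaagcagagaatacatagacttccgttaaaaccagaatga
In the 250 bases before the start, the motif was found for 5 of the 7 risen members present in the RefSeq table (the 5 shown) and for 15 of the 22 tested members present, against 3.02% of 35116 promoters. The list was assembled from genes known to respond to interferon, so the motif describes the list as a whole, not the members that rose.

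Of 32 tested S phase genes 4 rose and 0 fell: CDC45, MCM5, MCM4 and MCM6 (0.565% of all tested genes rose). All 32 had a change above 0, against 55.4% of all genes, with a median of 0.119. In 30 of 32 both washout libraries lay above both controls, against 23.9% of all genes. The summed RPM were 4831 and 4862 in control, 5337 and 5258 after washout and 4781 and 4828 with IAA. The median stayed between 0.102 and 0.136 over the 14 alternatives of the read fit, while the number of members past the test ranged from 0 (without control replicate 1) to 4, with 1 without control replicate 2, 1 without washout replicate 1, 2 without washout replicate 2 and 1 with ratio scaling.

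CDC45 (ENSG00000093009.5), a subunit of the replicative helicase, had 355 and 392 reads in control and 495 and 484 after washout, with 424 and 368 under IAA (log2 change 0.39, SE 0.105, adjusted p = 0.0422). MCM5 (ENSG00000100297.11) had 2515 and 2665 reads against 3159 and 2925 (log2 change 0.23, SE 0.050, adjusted p = 0.00431). MCM4 had 5821 and 5690 against 6279 and 6525, and MCM6 4690 and 4829 against 5269 and 5292. The 3 MCM genes encode subunits of the ring that unwinds DNA at replication forks, and their washout libraries lay above the controls without overlap. Of the 28 members that did not pass, PCNA, the polymerase clamp, had 3062 and 3175 against 3248 and 3340 reads (log2 change 0.08, adjusted p = 0.531). The cyclin CCNE1 overlapped, at 1054 and 1183 against 1192 and 1126.

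The E2F motif TTTGGCGC, sought on both strands in the 250 bases before the start, was found for 4 of 28 S phase members in the RefSeq table and for 0.55% of all 35116 promoters. Of the 2 risen members in the table MCM6 held it and CDC45 did not. S phase genes are known E2F targets, so the motif describes the list as a whole, not the members that rose. The 180 bases before the MCM6 start follow, with both matches in capitals.
MCM6 (chr2:135876444-135876623, minus strand): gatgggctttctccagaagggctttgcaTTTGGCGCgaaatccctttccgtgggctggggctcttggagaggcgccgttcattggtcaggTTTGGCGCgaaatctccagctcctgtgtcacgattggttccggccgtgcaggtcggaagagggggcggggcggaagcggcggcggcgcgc

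Some replication and cell cycle genes outside the list also stood among the 151, and 6 higher ones, picked after their values were seen, are named here. They were DTL, a ubiquitin ligase subunit active at replication, from 1376 and 1424 to 1633 and 1677 reads, and CDC7, the kinase that fires replication origins, from 1222 and 1097 to 1350 and 1397. The thymidine kinase TK1 rose from 3842 and 4009 to 4470 and 4305, and the histone chaperone ASF1B from 1386 and 1534 to 1773 and 1642. PKMYT1, a kinase that holds CDK1 inactive, rose from 1367 and 1547 to 1956 and 1698, and FANCC, of the Fanconi DNA repair complex, from 447 and 430 to 587 and 557. In the limma voom fit TK1 (adjusted p = 0.046), CDC7 (0.0442) and ASF1B (0.0447) lay near the threshold. They did not pass with median-ratio scaling or with a replicate term, whereas DTL, PKMYT1 and FANCC passed with both. The choice was not complete and not every such gene rose. The DNA topoisomerase TOP1 fell from 8252 and 8899 to 7750 and 7812 reads (log2 change -0.14, adjusted p = 0.0359), and FBXW7, given below, also fell. Of 30 tested G2 and mitosis genes 0 passed and 9 had a change above 0 (median -0.025), against 55.4% of all tested genes. Of these CENPF had 5176 and 5177 against 4531 and 5024 reads (adjusted p = 0.202) and PLK1 1394 and 1469 against 1265 and 1294 (adjusted p = 0.261).

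Of the 34 gene lists, 12 held at least 1 called member and 22 none. The lowest medians were those of the integrated stress response (-0.114, 3 of 19 lower), metallothioneins and metal response (-0.1, 0 of 7), BMP and TGF-beta targets (-0.095, 0 of 12), hypoxia response (-0.073, 2 of 16 lower) and ribosome biogenesis (-0.065, 1 of 38 lower and 7 of 38 above 0). Over all tested genes 0.515% fell and 55.4% had a change above 0. Lists with 0 called members included ENL and partner complexes (23 tested, median -0.036), BET proteins and P-TEFb control (8, 0.022), WNT and beta-catenin targets (11, -0.018), p53 targets (24, -0.007), NF-kB targets (10, 0.114), cytosolic ribosomal proteins (40, 0.023), respiratory chain (38, 0.003) and epithelial keratins and junctions (26, 0.015).

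**Figure D3:**
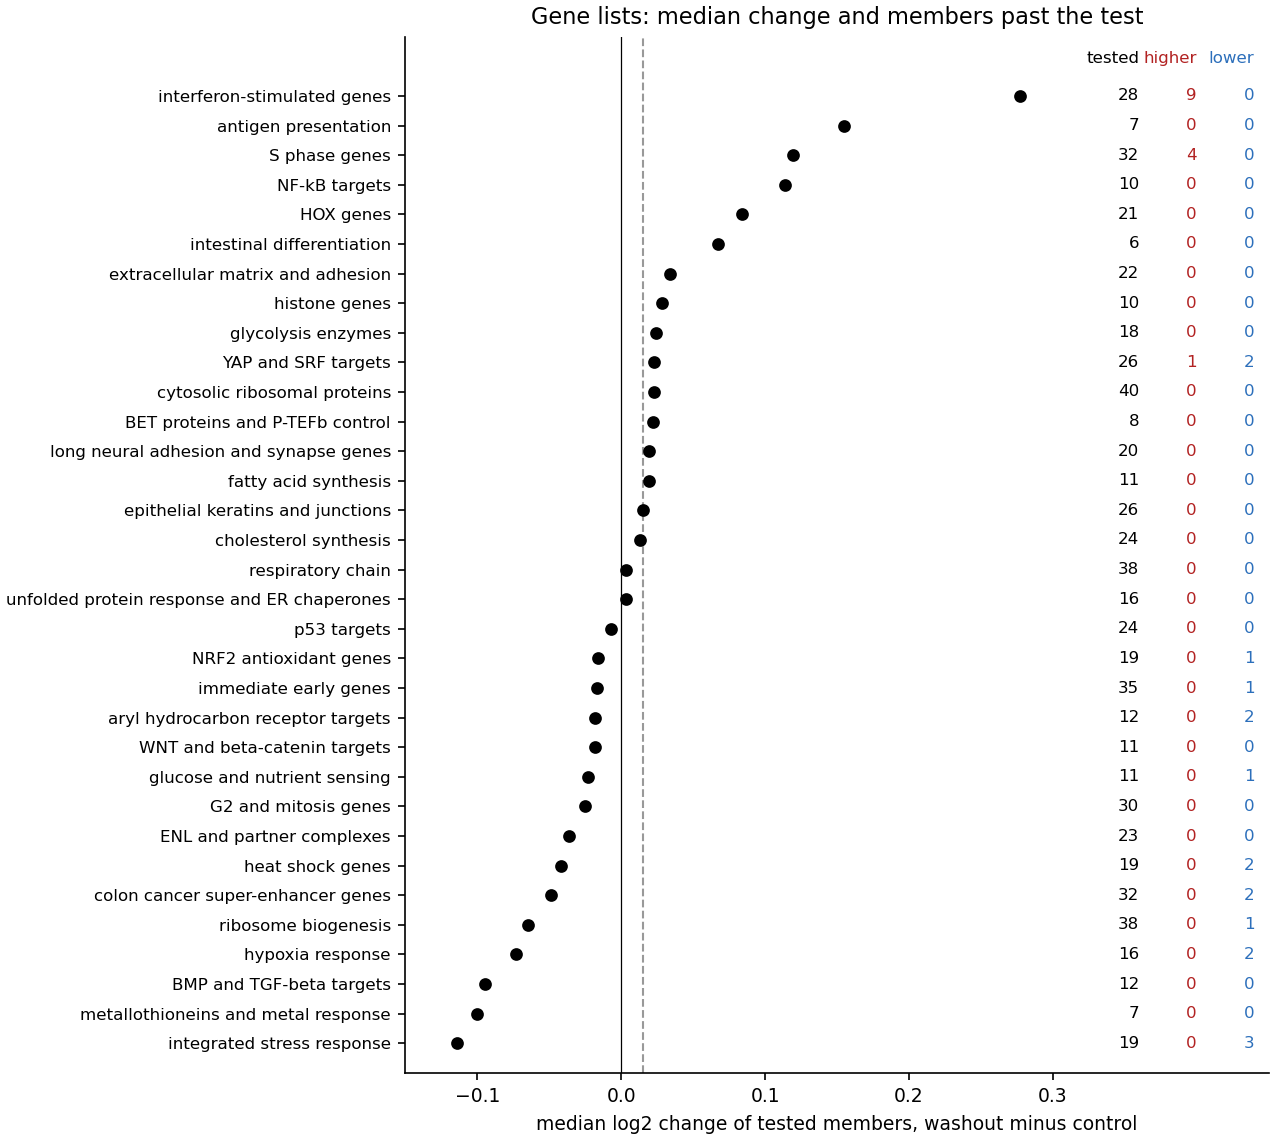
Median log2 change in washout minus control over the tested members of each list with at least 5 of them (dots, x axis), beside the number tested, the number higher (red) and the number lower (blue). The dashed line marks the median of all 13971 genes, 0.015. Interferon-stimulated genes stand at 0.277 and the integrated stress response at -0.114.

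Among integrated stress response genes, which ATF4 switches on when amino acids are short or protein folding fails, DDIT4, SLC7A11 and SLC7A5 fell. Without control replicate 1 the count was 1, without control replicate 2 it was 0 and without either washout library 2. DDIT4, an inhibitor of mTORC1, had 1052 and 961 reads in control, 693 and 908 after washout and 1430 and 1378 under IAA (log2 change -0.34, SE 0.082, adjusted p = 0.0136). Washout replicate 1 was the lowest, and without it the adjusted p of DDIT4 was 0.659. SLC7A11, the cystine transporter, had 1074 and 1043 against 876 and 829 reads, with 1746 and 1733 under IAA (log2 change -0.31, adjusted p = 0.0112). SLC7A5, the light chain of a leucine transporter, had 11881 and 12750 against 11415 and 11040, with 17570 and 18010 under IAA (log2 change -0.13, adjusted p = 0.0213). These 3 genes were thus below control after washout and above it under IAA. ATF4 itself had 4246 and 4501 against 3805 and 4070 reads (adjusted p = 0.074), and CHAC1, a glutathione-degrading enzyme, 118 and 107 against 65 and 87 (adjusted p = 0.236).

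In the hypoxia list VEGFA and NDRG1 fell. VEGFA, the main growth factor of blood vessels, had 1815 and 1881 reads in control and 1492 and 1576 after washout (log2 change -0.27, SE 0.060, adjusted p = 0.00609). NDRG1 had 4376 and 4394 against 3315 and 4073 reads (log2 change -0.25, adjusted p = 0.0032), so washout replicate 1 carried most of the difference. The 2 washout libraries also disagreed in P4HA1, a collagen prolyl hydroxylase, at 1712 and 2273 reads against 2285 and 2260 in control (adjusted p = 0.106). Without either control library, or without washout replicate 1, 0 of the 16 hypoxia members passed, and 4 passed without washout replicate 2.

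Of 19 heat shock genes 2 fell (median -0.042; 0.515% of all tested genes fell). HSP90AA1, the inducible cytosolic HSP90, had 32095 and 32684 reads in control and 29176 and 29480 after washout (log2 change -0.14, SE 0.024, adjusted p = 8.99e-05). CHORDC1, an HSP90 cochaperone, had 2350 and 2271 against 2041 and 1774 (log2 change -0.28, adjusted p = 0.00215), while HSPA8, the constitutive HSP70, had 32421 and 33835 against 31761 and 32585 (adjusted p = 0.527). Of the 38 ribosome biogenesis genes listed DDX21, an RNA helicase of the nucleolus, fell, from 14995 and 14742 to 13152 and 14026 reads (log2 change -0.13, adjusted p = 0.0166). Outside the list, and named after their values were seen, the ribosome assembly factors LTV1 (log2 change -0.27), NOL9 (log2 change -0.23) and WDR3 (log2 change -0.17) also fell. Of 35 immediate early genes PHLDA1 fell, from 9244 and 9531 to 8353 and 8158 reads (log2 change -0.18, adjusted p = 0.000869). Several called members recur across lists: DDIT4 is also the 1 of 11 glucose and nutrient sensing genes that fell, SLC7A11 the 1 of 19 NRF2 genes, and SLC7A5 with EREG the 2 of 12 aryl hydrocarbon receptor targets. Without control replicate 1 or 2 the heat shock count was 1 and 2, the ribosome biogenesis and NRF2 counts were 0, and without control replicate 2 the immediate early count was 0. Without washout replicate 1 the ribosome biogenesis count was 0, and without washout replicate 2 it was 2, the heat shock count 1 and the NRF2 count 0.

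A few genes known to respond to IAA or ENL loss were read in all 6 libraries. CYP1A1, a cytochrome induced through the aryl hydrocarbon receptor, had 60 and 50 reads in control, 2560 and 2898 under IAA and 58 and 51 after washout (washout log2 change -0.01, 95% interval -0.57 to 0.55). TIPARP, of the same pathway, had 2795 and 2989, 7977 and 8411, and 2799 and 3007 reads (log2 change 0.01, interval -0.09 to 0.11). CYP1B1 had 149 and 152, 3032 and 3137, and 231 and 179 reads, with washout above control in both libraries but an adjusted p of 0.219 (0.0158 in the limma trend fit on log2 RPM, an alternative added after seeing the data) (log2 change 0.43, interval 0.11 to 0.76). These intervals are not adjusted for the number of genes.

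Among genes listed as near colon cancer super-enhancers, SOX4, a progenitor transcription factor, had 3947 and 4199 reads in control, 1565 and 1641 under IAA and 4285 and 4328 after washout (washout log2 change 0.08, interval -0.01 to 0.17). MYC had 10601 and 11080, 5969 and 6324, and 10148 and 10035 reads (log2 change -0.10, interval -0.17 to -0.04, adjusted p = 0.141). SOX9 had 2896 and 3155, 1528 and 1606, and 2951 and 2880 (log2 change -0.05, interval -0.15 to 0.05). After washout MYC was thus below both controls in both libraries without passing the test, and SOX9 overlapped control. MLLT1 itself had 459 and 480, 445 and 402, and 463 and 428 reads (log2 change -0.08, interval -0.28 to 0.13). Its mRNA does not measure the degraded protein.

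F3 (ENSG00000117525.9), tissue factor, the receptor that starts coagulation, did not return to the control level. It had 5471 and 5877 reads in control, 1482 and 1457 under IAA and 4229 and 4701 after washout. On the log2 scale it was lower by 0.35 after washout (log2 change -0.35, SE 0.044, adjusted p = 3.57e-08), a level 0.787 times that of control, and both washout libraries lay between the IAA and the control values. Of the 32 tested super-enhancer genes F3 and VEGFA fell and 10 had a change above 0 (median -0.049). Over all tested genes 0.515% fell, 0.565% rose and 55.4% had a change above 0 (median 0.015). F3 also counts among 26 tested YAP and SRF targets, where ACTG1, an actin, fell (log2 change -0.09, adjusted p = 0.00254) and TEAD1, the DNA-binding partner of YAP, rose from 3865 and 3777 to 4314 and 4443 reads (log2 change 0.20, adjusted p = 0.00624). With control replicate 1 or 2 left out, the YAP and SRF count went from 3 to 1 and the super-enhancer count from 2 to 1.

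The genes with the 2 smallest p-values, KITLG and EREG, encode growth factors. KITLG (ENSG00000049130.9), the ligand of the receptor KIT, had 33327 and 32380 reads in control, 18916 and 20337 under IAA and 27748 and 27352 after washout (log2 change -0.25, SE 0.025, adjusted p = 1.88e-11). EREG (ENSG00000124882.3), epiregulin, a ligand of the EGF receptor, had 18134 and 18449 reads in control, 22071 and 22799 under IAA and 15478 and 14339 after washout (log2 change -0.30, SE 0.030, adjusted p = 2.66e-11). KITLG after washout stood between IAA and control, whereas EREG stood below both. KITLG was named after its values were seen.

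**Figure D4:**
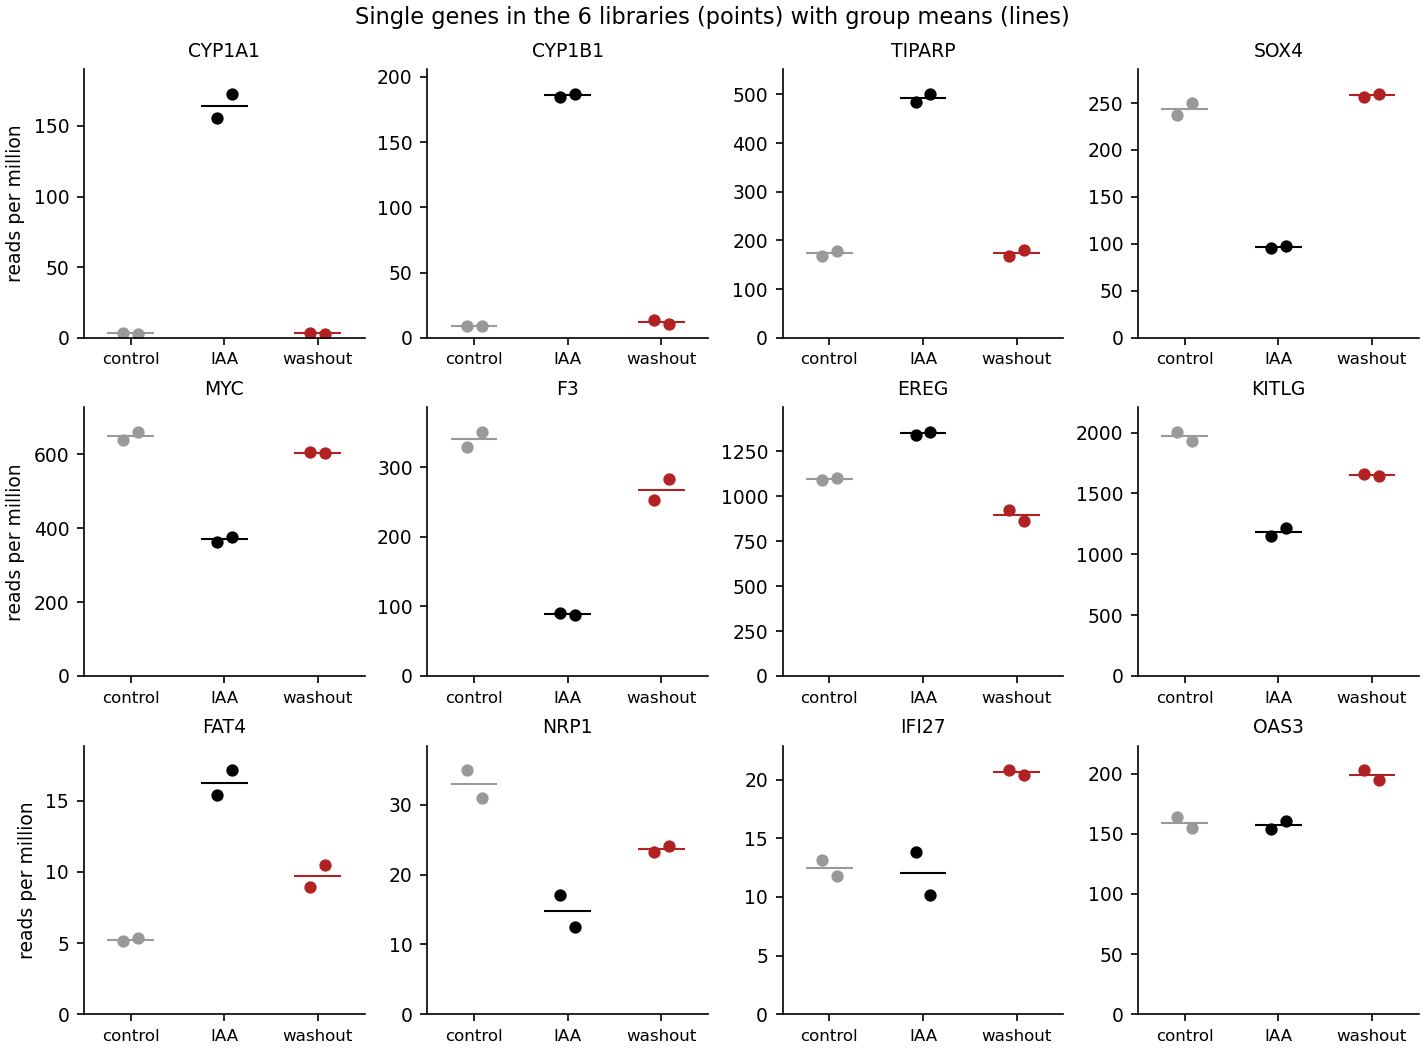
RPM (y axis, from 0, on a scale of its own in each panel) of 12 genes in the 2 control, 2 IAA and 2 washout libraries, with a line at each group mean. CYP1A1, TIPARP and SOX4 after washout lie near control, F3, KITLG, FAT4 and NRP1 lie between control and IAA, EREG lies below both, and IFI27 and OAS3 lie above both.

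Other genes that passed with every library left out, named after their values were seen, had high read numbers. HMGA2, a chromatin protein of embryonic and tumour cells, had 12077 and 12239 reads in control and 10527 and 10325 after washout (log2 change -0.22, adjusted p = 6.18e-06). ALDH1A3, which makes retinoic acid, had 24554 and 24191 against 21230 and 21641 (log2 change -0.18, adjusted p = 5.73e-06). S100A10, the partner of annexin A2, had 1839 and 1800 against 2157 and 2509 (log2 change 0.35, adjusted p = 4.29e-05), and RHOBTB3 2499 and 2417 against 3230 and 2911 (log2 change 0.32, adjusted p = 3.26e-05). Of other genes with high read numbers, chosen in the same way, EZR (ezrin) fell from 50079 and 52129 to 45083 and 47648 reads. The tubulin TUBB rose from 21723 and 23318 to 25530 and 24651 and TUBA1B from 12033 and 11718 to 12988 and 13025.

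Among genes whose mean FPKM reached 1, the largest rises on reads outside the interferon list came from genes of unrelated roles. TOR2A, a torsin ATPase, had 155 and 131 reads against 209 and 245 (log2 change 0.67, adjusted p = 0.0149), and ITPKA, a kinase of inositol trisphosphate, 177 and 196 against 289 and 260 (0.56, 0.0284). AP5B1, an adaptor subunit, had 266 and 236 against 402 and 326 (0.53, 0.012), and HES4, a Notch-related repressor, 586 and 592 against 805 and 756 (0.41, 0.0028). NAT14, ZC3H10 and SNN complete the 12 largest with log2 changes of 0.45, 0.42 and 0.37. Pseudogenes were left out of both rankings. The largest falls besides those already given were FGFR1OP2 (981 and 944 against 777 and 689 reads, log2 change -0.39) and GTPBP10, a GTPase of mitochondrial ribosome assembly (1170 and 1121 against 968 and 854, -0.33). They were followed by the gene labelled NAA38 (ENSG00000128534.3, -0.29), the carboxypeptidase CPA4 (-0.28), the zinc transporter SLC30A5 (-0.28), TMX1 (-0.27) and the noncoding ZFAS1 (-0.27). Since no gene passed on FPKM, these genes were ranked on reads after the values were seen.

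The FPKM values divide by the whole gene span, introns included, so genes of long span have low FPKM at read numbers where short genes pass a filter of 1. Of the 6061 tested genes with a mean FPKM under 1, 32 passed on reads (0.528%), 20 higher (0.33%) and 12 lower (0.198%). Over all 13971 tested genes the shares were larger, at 1.08%, 0.565% and 0.515%. With control replicate 1 or 2 left out 1 and 3 of the 6061 genes passed, with washout replicate 1 or 2 left out 18 and 21, and with either IAA library left out 39.

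FAT4 (ENSG00000196159.7), a giant protocadherin of 177 kb span, showed the largest rise of these among genes with a mean of at least 30 reads over control and washout (CTF1, with fewer reads, rose more), from 85 and 90 reads in control to 150 and 175 after washout, with 253 and 288 under IAA (log2 change 0.89, SE 0.198, adjusted p = 0.00601, mean FPKM 0.059). Its washout libraries lay between control and IAA. SSBP3, a cofactor of LIM-domain complexes (188 kb), had 203 and 184 against 285 and 301 reads (log2 change 0.60, adjusted p = 0.00959). DCLK1, a microtubule-binding kinase of tuft cells (360 kb), had 251 and 283 reads in control, 369 and 400 after washout and 171 and 149 under IAA (log2 change 0.53, adjusted p = 0.00837). CREB5, a transcription factor of 527 kb span, had 223 and 201 against 318 and 293 (log2 change 0.53, adjusted p = 0.0252). The transcription factor ETV1 had 381 and 356 against 484 and 505, APAF1, the core of the apoptosome, 397 and 315 against 470 and 465, SERTAD4 218 and 202 against 324 and 288, and MUM1L1 454 and 385 against 530 and 595. The 8 were chosen among genes whose groups do not overlap.

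C7orf10 (ENSG00000175600.11; 726 kb) had the largest fall under the same limit of 30 reads (KCTD19, with fewer, fell more), from 81 and 97 reads in control to 40 and 41 after washout, with 91 and 60 under IAA (log2 change -1.12, SE 0.275, adjusted p = 0.0166). NRP1 (ENSG00000099250.13; 159 kb), a co-receptor for semaphorins and VEGF, had 581 and 519 reads in control, 280 and 209 under IAA and 389 and 401 after washout (log2 change -0.47, SE 0.104, adjusted p = 0.00479). NRP1 after washout thus lay between the other groups. TUBE1, epsilon-tubulin, had 293 and 267 against 206 and 184 reads, and SLC25A16, a mitochondrial carrier, 506 and 466 against 403 and 324. FBXW7, the ubiquitin ligase subunit that marks cyclin E and MYC (215 kb), had 879 and 922 against 786 and 675 (log2 change -0.30, adjusted p = 0.0358), POLR2M 781 and 812 against 665 and 580, and MOB1B, a Hippo pathway cofactor, 1705 and 1743 against 1462 and 1377. SLC7A11, given above, belongs to the same 8.

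Medians of the change lay close together over span. The value was 0.019 in 2473 genes under 5 kb, 0.026 in 3456 of 5 to 20 kb, 0.011 in 3410 of 20 to 50 kb, 0.004 in 2229 of 50 to 100 kb, 0.011 in 1543 of 100 to 200 kb and 0.013 in 860 of 200 kb or more. In the longest class, of which 98.6% had a mean FPKM under 1, 5 genes rose and 8 fell (1.51% of tested), against 0.97% in the shortest class. The difference between classes was not tested. In single pairs of libraries the longest class had a median of -0.007 between replicates numbered 1 and 0.035 between replicates numbered 2, and -0.028 between the 2 controls.

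**Figure D5:**
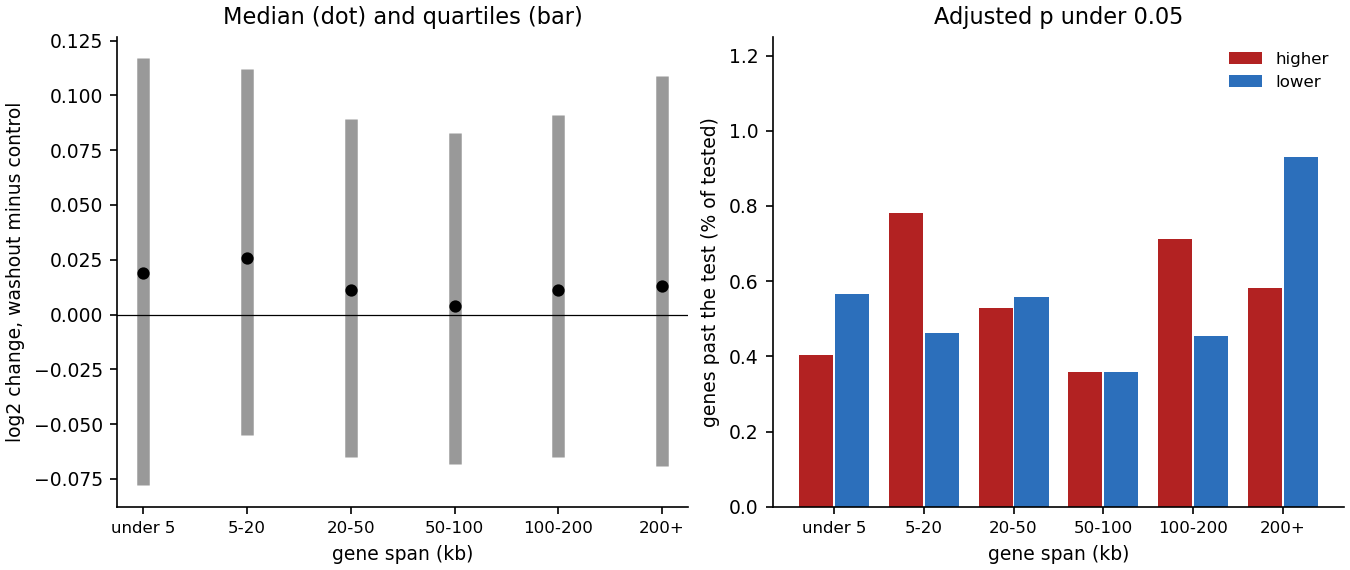
Left, median (dot) and quartiles (bar) of the log2 change in washout minus control for genes grouped by span in kb. Right, percent of tested genes in each class that rose (red) or fell (blue). Medians stay between 0.004 and 0.026, and at most 0.93% of a class fell.

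Some calls cannot be assigned to 1 gene. Pseudogenes made up 12 of the 151 (7.9%, against 11.3% of tested genes), and 11 of the 12 were lower. The groups of PTMAP2 and PTMAP5 overlapped. The pseudogenes include EEF1A1P5 (156740 and 154790 against 139670 and 143594 reads), PTMAP2 and PTMAP5 beside their parent PTMA, which fell as well, and TUBBP1 beside TUBB, which both rose. Other parents did not pass. KRT19P1 fell (log2 change -0.19) while KRT19 did not pass (-0.05), and HSPA8P5 fell (-0.19) while HSPA8 did not pass. Pseudogene reads may be shared with near-identical copies, so these values are uncertain. Exons of 69 of the 151 genes overlap those of another GENCODE 29 gene on either strand, and no source used here gives the strand that was counted. ISG15, DTX3L, DDIT4, SLC7A11, VEGFA, HSP90AA1, KITLG, ALDH1A3, RHOBTB3, HMGA2, NRP1, TUBE1, FBXW7, POLR2M, MOB1B, SSBP3, SERTAD4 and APAF1 are among these. The names are not complete, since SLC7A5, CHORDC1, PHLDA1, TUBB, PKMYT1 and other genes given above also overlap. The share over all tested genes is not given here.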

How the data were processed

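Poly(A) RNA of 6 HCT116 ENL-AID libraries was sequenced. FPKM values were deposited by the authors in 1 table. The submitters' processing notes name HISAT, Bowtie2, HTSeq, edgeR and hg19, with no versions given there. The deposited FPKM divide reads by the whole gene span and by the library total, so whole reads could be recovered. Of 21707 genes above 0, 16195 (74.6%) came out whole within 0.002 reads at the GENCODE 29 span. For 4927 genes another length, and for 585 the smallest length, was taken because it gave whole reads, so wholeness is no check on these. IFI27, SAMD9, ISG15, DCLK1 and FBXW7 are among the named genes with such a length. The rule that picks a gene's length was revised after a first fit had been seen, because the first rule gave sums above the library totals (104.95% to 105.34%). The revised rule still gave 100.18% of the total in each library, so some recovered reads may remain too high.

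The main test was limma 3.58.1 (R 4.3.3) with a trend on log2(FPKM + 1), for genes whose mean FPKM reached 1. The test on recovered reads was limma voom for genes with a mean of at least 20 reads, and called 151 genes. Both used all 6 libraries without a replicate term, Benjamini-Hochberg adjustment over all genes tested and a threshold of 0.05. SEs and intervals cover the spread between 2 libraries a group and counting error. On reads that spread was mostly pooled over genes (76.6 prior against 3 residual degrees of freedom). It says little of a gene's own replicates, so genes whose replicates disagree can pass, as PTMAP5 did with overlapping groups. On FPKM the prior degrees of freedom were 1.81. Tables were joined in Python 3.11.15 with pandas 2.3.3, and the procedure was tested on simulated data with a set spread. There limma on FPKM called 0% of 41 genes changed 1.25-fold and limma voom 55.2% of 67, so small changes can be missed.

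Members and lists were chosen with earlier results of these data known. Named by rule were the 12 largest rises and falls on FPKM (none passed, so the 12 largest on reads at FPKM 1 or more were taken after values were seen), the 8 largest each way on reads under FPKM 1 with at least 30 mean reads and groups that do not overlap, up to 4 called members a list, and 8 genes given whatever their result (MLLT1, CYP1A1, CYP1B1, TIPARP, F3, SOX4, MYC, SOX9). Y-linked genes and XIST were left out, and some items are not reported here. Alternatives varied the pseudocount, filters, scaling, libraries and replicate term. A further 3 were added after seeing the data: a trend fit on log2 RPM, genes at the GENCODE span alone, and the first length rule.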

Additional observations from a re-analysis of the deposited data

How the results depend on the processing

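On FPKM, other pseudocounts, scalings, a replicate block and leaving out each library all gave 0 called genes. A filter at a mean FPKM of 0.1 gave 28 calls, no filter 48, and limma voom on recovered reads 151. On recovered reads the count of 151 ranged from 31 to 184 with 1 library left out, and was 104 for genes at the GENCODE span alone, 108 with a filter of 5 reads and 112 with the length rule first tried, of which 107 were among the 151 (the first and last of these 3 were chosen after seeing the data). Interferon members called ranged from 1 to 9 with 1 library left out. S phase members called (4) ranged from 0 to 4, and were 2 with a filter of 5 reads, 1 with median-ratio scaling and 2 with the length rule first tried. Genes under FPKM 1 (32) ranged from 1 to 39, and were 21 with a filter of 5 reads and 20 at the GENCODE span alone. The cause was not tested. Replicate numbers did not pair the libraries (correlation of deviations -0.023 between control and washout), and a replicate block gave 0 calls on FPKM and 123 on reads. Over the named genes, 605 alternative values kept direction and side of the threshold, 183 kept direction without passing, 1 (CYP1B1 in the trend fit) newly passed and 6 changed sign. The 6 were in genes near 0 that did not pass the test there: CYP1A1 ranged from -0.15 to 0.13 and TIPARP from -0.05 to 0.06 with 1 library left out, SOX9 from -0.11 to 0, and TIPARP was -0.01 with median-ratio scaling. Depth limits genes under 100 reads, whose median SE was 0.298 against 0.083 above.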
